A study of Mus musculus with 14 samples.

Results

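The subject of this report is the difference between the response of granulocyte-macrophage progenitors (GMPs) and that of long-term haematopoietic stem cells (LT-HSCs) to the fusion gene AML1-ETO in mouse bone marrow. For each gene it is the log2 fold change of AML1-ETO over control in GMPs minus the same fold change in LT-HSCs, so a positive difference means that the fusion raised the gene more, or lowered it less, in GMPs. All 14 bulk RNA-seq libraries of the series entered it, and 16116 of 54532 gene symbols had enough counts to be tested. There were 3 AML1-ETO and 4 control libraries of each cell type, all from bone marrow of C57BL/6 mice. The AML1-ETO libraries, called fusion libraries beside their values, carry the genotype Runx1-Runx1t1 and the control libraries are labelled wild type. Every sample, controls included, is listed with Poly(I:C), a synthetic double-stranded RNA that induces interferon, at 5 mg/kg in 4 doses. The fusion allele is switched on by Mx1-Cre, whose interferon-responsive promoter is active in many blood and other cells, and the labels do not say whether controls carried Mx1-Cre. The labels give neither the ages nor the sort markers, and they do not tie the libraries of a group to individual animals. P-values therefore reflect only the spread between these libraries, which may be technical.

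AML1-ETO is the product of the t(8;21) translocation of acute myeloid leukaemia. It joins the DNA-binding domain of RUNX1, a transcription factor needed to form blood stem cells, to nearly all of RUNX1T1 (ETO), which recruits corepressors. LT-HSCs are mostly quiescent cells that can renew all blood lineages, and GMPs are cycling progenitors committed to neutrophils and monocytes.

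The depth was 13210952 to 19403864 counts per library. Levels are CPM, that is counts relative to the scaled library size, and are listed in replicate order within a group. Fold changes come from edgeR's quasi-likelihood test with all 4 groups in one fit, and a gene is called at a Benjamini-Hochberg adjusted p under 0.05. The number of genes detected separated the groups crosswise. It was 12106 to 15329 in control and 16427 to 18106 in AML1-ETO LT-HSCs, but 18747 to 19508 in control and 13473 to 14887 in AML1-ETO GMPs. The spread between libraries was also unequal, with a biological coefficient of variation of 0.121 in control GMPs, 0.419 in AML1-ETO LT-HSCs, 0.970 in AML1-ETO GMPs and 1.10 in control LT-HSCs. Some libraries stood apart. AML1-ETO GMP library 1 held red cell, neutrophil and MHC class II transcripts, and AML1-ETO GMP library 3 held stem cell, megakaryocyte and red cell transcripts. Library 2 of that group lay within control GMPs for the red cell and MHC class II lists, but not for all lineages. Its summed neutrophil granule level was 2569 CPM, against 1994 CPM in library 3 and 1065 to 1251 CPM in control GMPs. For the eosinophil list AML1-ETO GMP libraries 1, 2 and 3 had 8434, 10885 and 3416 CPM, against 1075 to 2636 CPM in control GMPs. Immunoglobulin genes took 9.02% of the counts of control LT-HSC library 2, against 1.68% to 2.58% in the other control LT-HSC libraries, and control LT-HSC library 3 had the fewest genes detected. The counts are therefore also given without AML1-ETO GMP libraries 1 and 3, which leaves 1 library in that group and assumes that it varies like the others, and without control LT-HSC libraries 2 and 3. These exclusions were chosen after the data were seen. In bulk RNA, fewer cells of a type and less RNA per cell cannot be told apart.

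**Figure D1:**
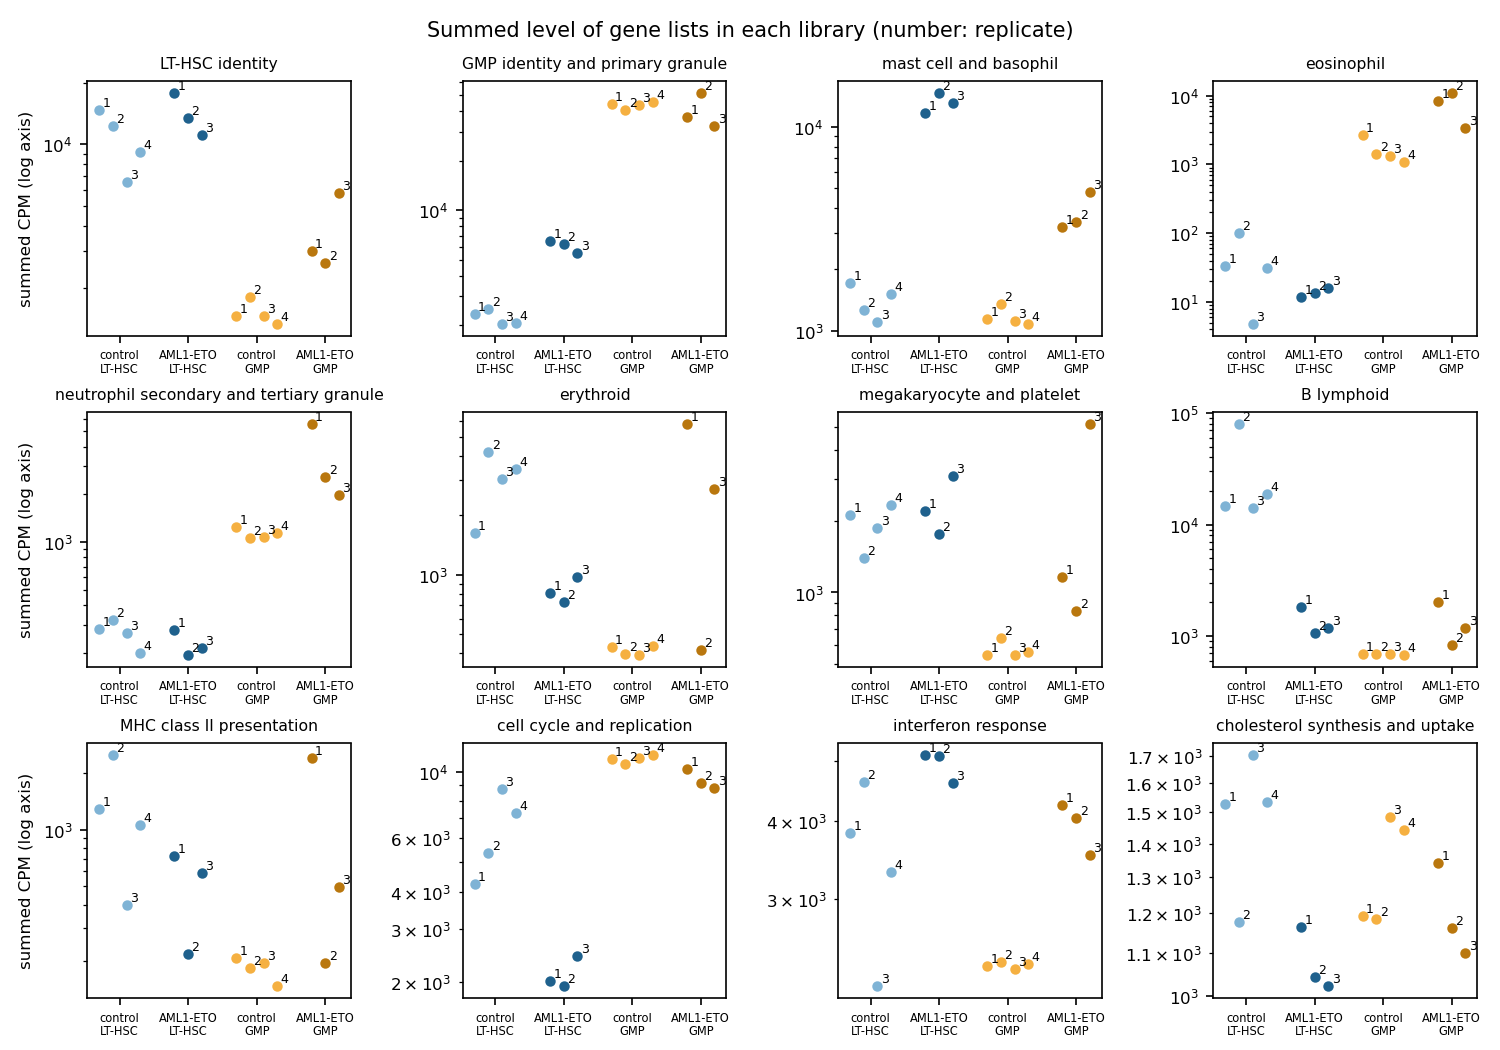
Summed CPM of 12 gene lists (log axis) in each of the 14 libraries, by group; the number beside a point is the replicate. AML1-ETO GMP library 1 leads that group for the erythroid list (5786 CPM, against 418 in library 2) and library 3 for the megakaryocyte list (5133 CPM). The mast cell list sits at 11684 CPM or more in all AML1-ETO LT-HSC libraries, most of it from Cpa3.

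The sort labels were checked against defining genes. Slamf1, a SLAM receptor of LT-HSCs, was at 64.8, 43.9, 30.0 and 56.8 CPM in control and 50.3, 31.1 and 76.2 CPM in fusion LT-HSCs, whereas control GMPs had 0, 0.269, 0.649 and 0.175 CPM. Mpo, the myeloperoxidase of primary granules, was at 136, 44.2, 32.0 and 80.4 and 18213, 17671, 17536 and 19674 CPM in control LT-HSCs and control GMPs. Both separated the control cell types without overlap. Among AML1-ETO GMPs, library 3 was at 67.3 CPM for Slamf1, within the range of all LT-HSC libraries, and libraries 1 and 2 were at 5.52 and 2.49 CPM.

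The genes of the fusion were examined first. Runx1t1, which wild-type blood cells hardly express, was at 3.97, 0, 18.2 and 11.2 CPM in control and 85.6, 164 and 125 CPM in fusion LT-HSCs, and stood at 2.62, 2.32, 1.69 and 2.74 CPM in control and 26.0, 26.3 and 45.7 CPM in fusion GMPs. AML1-ETO libraries lay above controls in both cell types without overlap, and AML1-ETO LT-HSCs lay above AML1-ETO GMPs. It rose by 3.91 ± 0.88 in LT-HSCs (adjusted p = 0.0069) and by 3.80 ± 0.89 in GMPs (adjusted p = 0.034). The difference was -0.11 ± 1.22 (SE) and was not called, and its sign turned in 5 of the 14 fits without 1 library, the highest value being 0.29 without control LT-HSC library 2, and with scaling by library totals (0.05). Counts per gene cannot separate reads of the endogenous Runx1t1 from those of the fusion.

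Runx1, whose 5′ part the fusion contains, differed modestly. It was at 188, 141, 135 and 167 CPM in control and 287, 440.3 and 302 CPM in fusion LT-HSCs and rose by 1.12 ± 0.18 there. In GMPs it was at 171, 212, 189.9 and 186 CPM in control and 219, 219 and 169 CPM with the fusion, ranges that overlapped. The difference was -1.03 ± 0.25 (SE) (adjusted p = 0.0265). The call was lost in 5 of the 14 fits without 1 library, each without 1 of AML1-ETO LT-HSC library 2, AML1-ETO GMP library 3 or control GMP libraries 2, 3 and 4 (highest adjusted p = 0.087), without AML1-ETO GMP libraries 1 and 3 (adjusted p = 0.216), without control LT-HSC libraries 2 and 3 (adjusted p = 0.061) and in limma voom with weights per group (adjusted p = 0.0756).

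The fusion changed 552 genes more positively in GMPs than in LT-HSCs (3.43% of the genes tested) and 469 genes more negatively (2.91%), by edgeR's quasi-likelihood test. The median difference of all genes tested was 0.01 on the log2 scale. In this fit of all 14 libraries most called genes had a called effect in LT-HSCs and none in GMPs. Of the 552 genes, 363 fell in LT-HSCs with no call in GMPs, 101 rose in GMPs with no call in LT-HSCs, 22 fell in LT-HSCs and rose in GMPs, 4 rose in both and 62 were called in neither. Of the 469 genes, 410 rose in LT-HSCs with no call in GMPs, 18 rose in both, 15 fell in GMPs with no call in LT-HSCs, 2 rose in LT-HSCs and fell in GMPs, 2 fell in both and 22 were called in neither. In the same fit the effect within LT-HSCs was called upward for 1669 genes (10.4%) and downward for 1497 (9.29%), and the effect within GMPs upward for 394 (2.44%) and downward for 64 (0.397%), or 2.84% in either direction. The GMP counts moved with the fit: they were 765 upward and 554 downward with each cell type fitted alone (1107 and 684 in LT-HSCs), 918 and 331 by DESeq2 (1813 and 2008 in LT-HSCs), 668 and 312 without control LT-HSC libraries 2 and 3, and 192 and 16 with a replicate block by number. With 1 library left out they were 183 to 639 upward and 20 to 199 downward, the fewest without control GMP library 4 and the most without control LT-HSC library 3. With each cell type fitted alone, 309 of the 552 genes and 293 of the 469 were called in LT-HSCs and not in GMPs, and 105 and 47 in GMPs and not in LT-HSCs. Counts within 1 cell type are from the fit of all 14 libraries unless another is named. AML1-ETO and control values did not overlap for 27.2% of the genes tested in LT-HSCs and 25.7% in GMPs, the background for each such statement on a gene. A call in one cell type and none in the other does not by itself show a difference, which is why the difference was tested.

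Read the other way, the same test gives the genes whose GMP to LT-HSC difference changed with the fusion. Because that test chose these genes, their counts below describe them and are no further evidence. Of the 469 genes with a lower difference, 186 were higher in GMPs than in LT-HSCs in control mice and no longer called in AML1-ETO mice, and 94 turned from higher in GMPs to higher in LT-HSCs. Of the 552 genes with a higher difference, 222 lost a call as higher in LT-HSCs, 160 gained one as higher in GMPs and 48 turned from the first to the second. Over all genes tested, GMPs exceeded LT-HSCs for 2247 genes in control mice (13.9%) and 2031 in AML1-ETO mice (12.6%), and fell below them for 1702 (10.6%) and 1474 (9.15%). A group had 0 counts in every library for 39 of the 552 genes and for 187 of the 469, and 102 of the 469 had a name of a predicted or unnamed gene. The genes detected per library, given above, moved with that pattern, and their part in it was not tested.

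Without AML1-ETO GMP libraries 1 and 3 the test called 119 genes higher and 113 lower, and 181 of the 1021 genes called with all libraries were among them, while 20 of the 1021 changed sign. Without control LT-HSC libraries 2 and 3 it called 608 and 725. With a replicate block by number 550 of the 1021 genes were still called, and with one by genotype and number 482. No single library carried all calls: 218 of the 552 and 200 of the 469 were still called without any 1 of the 14 libraries, and removing AML1-ETO LT-HSC library 2 lost the most, 319 and 246.

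**Figure D2:**
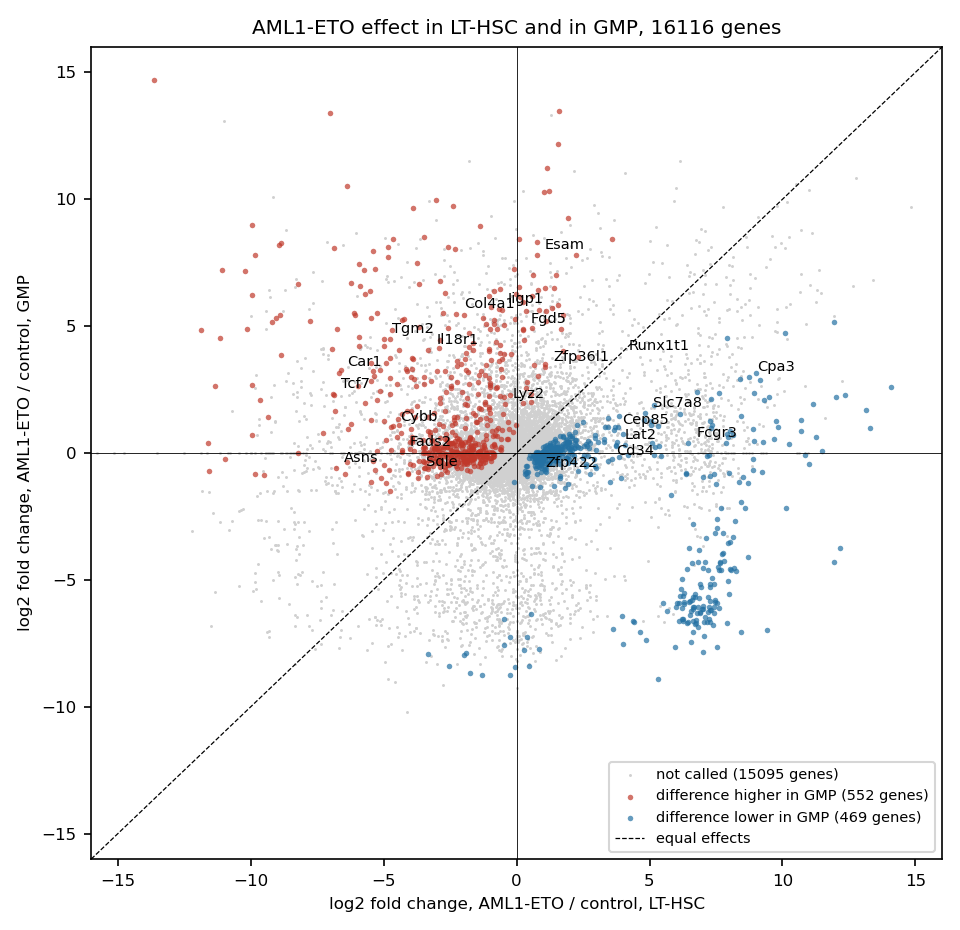
Log2 fold change of AML1-ETO over control in LT-HSCs (x axis) and in GMPs (y axis) for the 16116 genes tested; red and blue points are the 552 and 469 genes whose difference was called higher and lower in GMPs, and the dashed line marks equal effects. Most red points lie left of 0 and most blue points right of 0 with GMP values near 0, apart from a blue group at the lower right that holds genes with 0 counts in control LT-HSCs and AML1-ETO GMPs.

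A small set of genes moved in opposite directions, and these were called in both cell types. Col4a1 (chr8:11198423-11312826, mm10), a chain of basement membrane collagen, was at 95.5, 46.6, 48.1 and 57.4 CPM in control and 16.9, 6.91 and 14.6 CPM in fusion LT-HSCs, and stood at 0.589, 0.592, 0.714 and 0.291 CPM in control and 12.8, 11.4 and 49.9 CPM in fusion GMPs. The genotypes did not overlap in either cell type, and AML1-ETO GMP libraries 1 and 2 lay within the range of AML1-ETO LT-HSCs, while library 3 lay within that of control LT-HSCs. It fell by 2.27 ± 0.54 on the log2 scale in LT-HSCs and rose by 5.48 ± 0.60 in GMPs, a difference of 7.75 ± 0.82 (SE) (adjusted p = 0.000335).

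Il18r1, a chain of the interleukin-18 receptor, followed the same order, with 28.7, 69.9, 53.7 and 19.5 CPM in control and 1.55, 4.61 and 6.73 CPM in fusion LT-HSCs and 0.268, 0.269, 0.130 and 0.233 CPM in control and 4.54, 1.24 and 5.82 CPM in fusion GMPs. Its difference was 7.37 ± 0.98 (SE) (adjusted p = 0.00114). Tgm2, a transglutaminase and a member of the LT-HSC list, fell from 341, 241, 82.7 and 141 to 14.1, 2.30 and 2.51 CPM in LT-HSCs and rose from 0.428, 0.269, 0.520 and 0.291 to 19.1, 1.11 and 5.45 CPM in GMPs. The difference of Tgm2 was 9.47 ± 1.31 (SE) (adjusted p = 0.00145), with AML1-ETO GMP library 1 the highest of its group. Myh10, a non-muscle myosin heavy chain, had a difference of 6.46 ± 0.87 (SE) (adjusted p = 0.00127), and Ttc39b had one of 6.22 ± 0.79 (SE) (adjusted p = 0.00102). Each of these 5 genes stayed called without any 1 library and without AML1-ETO GMP libraries 1 and 3, where the differences were 6.63 for Col4a1, 5.73 for Il18r1, 6.53 for Tgm2, 6.33 for Myh10 and 5.31 for Ttc39b.

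Gbp4 and Gbp8, guanylate-binding proteins induced by interferon, also crossed. Gbp4 fell from 84.6, 65.0, 15.3 and 67.2 to 5.97, 2.92 and 2.87 CPM in LT-HSCs, while it had 0 counts in all control GMPs and stood at 7.43, 4.97 and 6.62 CPM in fusion GMPs. Against a floor of 3 counts over the control GMP group its difference was at least 11.08 (adjusted p = 0.000335). Gbp8 fell from 58.6, 39.1, 28.5 and 28.6 to 1.49, 0.921 and 1.65 CPM in LT-HSCs and rose from 0.107, 0.0538, 0.0649 and 0 to 48.9, 3.93 and 1.72 CPM in GMPs, where library 1 was far above the others. Its difference was 12.95 ± 1.59 (SE) (adjusted p = 0.000789).

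In the other direction 2 genes crossed, of which Zfp422 met the rule for naming. Zfp422 (chr6:116624016-116628999, mm10), a zinc finger protein, was at 77.1, 66.5, 72.1 and 49.0 CPM in control and 97.1, 131 and 114 CPM in fusion LT-HSCs. In GMPs it was at 145, 141, 147 and 139 CPM in control and 73.2, 88.3 and 82.7 CPM with the fusion. Neither pair of groups overlapped, and GMPs exceeded LT-HSCs in control mice but fell below them in AML1-ETO mice. It rose by 0.78 ± 0.16 in LT-HSCs and fell by 0.81 ± 0.17 in GMPs, and the difference was -1.60 ± 0.23 (SE) (adjusted p = 0.0021).

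**Figure D3:**
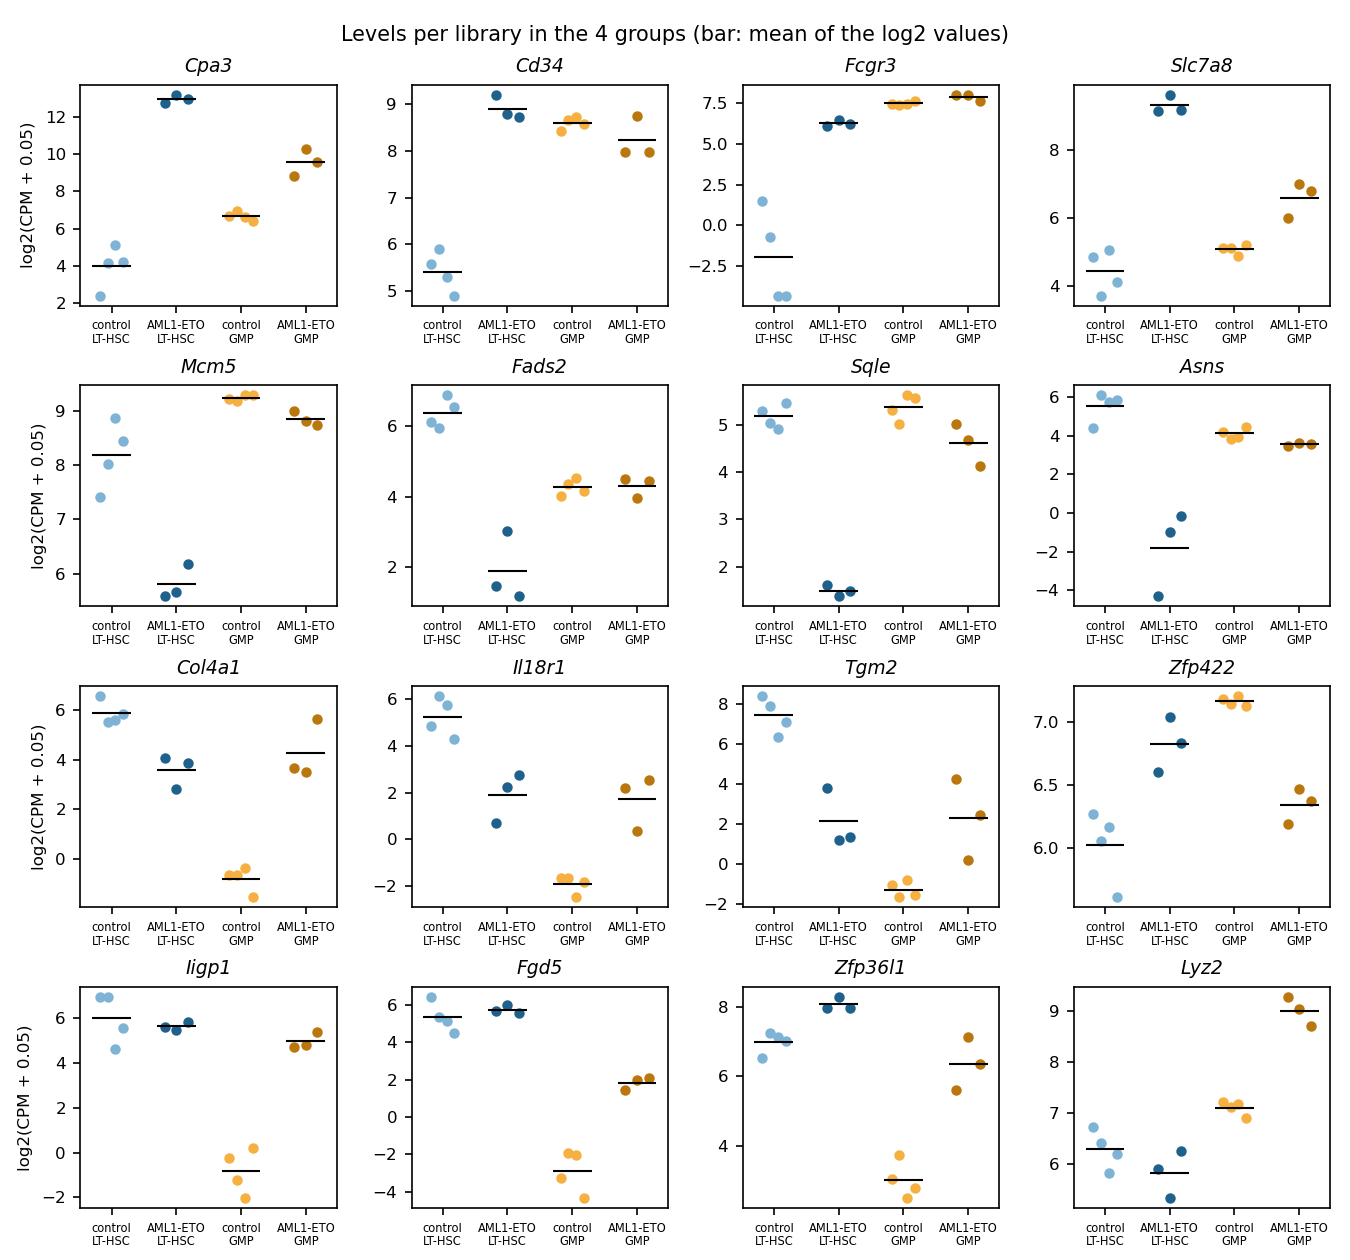
Level of 16 genes per library, as log2(CPM + 0.05), in control and AML1-ETO LT-HSCs and GMPs; the bar is the mean of the log2 values. Cpa3, Cd34, Fcgr3 and Slc7a8 rose in LT-HSCs, and Mcm5, Fads2, Sqle and Asns fell there. In AML1-ETO GMPs Fads2 overlapped its controls, while Mcm5, Sqle and Asns lay below all of theirs, with a smaller change than in LT-HSCs. Col4a1, Il18r1 and Tgm2 fell in LT-HSCs and rose in GMPs, Zfp422 exchanged its order, and Iigp1, Fgd5, Zfp36l1 and Lyz2 rose in GMPs.

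Part of the GMP programme rose in LT-HSCs. Of 37 measured genes of the GMP and primary granule list, 9 were lower and 2 higher for the difference, with a median of -0.42. In LT-HSCs 13 of the 37 rose and 5 fell, and in GMPs 1 rose (3 with GMPs fitted alone). Cd34 (chr1:194938819-194961279, mm10), a sialomucin carried by GMPs and by few mouse LT-HSCs, was at 48.0, 59.5, 39.3 and 30.0 CPM in control and 586, 437 and 423 CPM in fusion LT-HSCs, and stood at 341, 405, 418 and 378 CPM in control and 252, 424 and 252 CPM in fusion GMPs. AML1-ETO LT-HSCs thus lay above all control GMPs, and the difference was -3.76 ± 0.34 (SE) (adjusted p = 0.000333). Fcgr3, the low-affinity immunoglobulin receptor CD16, was at 2.80, 0.546, 0 and 0 CPM in control and 67.8, 88.4 and 74.9 CPM in fusion LT-HSCs, and stood at 176, 170.4, 174 and 202 and 262, 259.6 and 195 CPM in the matching GMPs. Its difference was -6.05 ± 0.96 (SE) (adjusted p = 0.00297), and the level reached in LT-HSCs stayed below that of every GMP library.

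Ctsg, the granule protease cathepsin G, rose from 10.7, 3.14, 0 and 14.8 to 239, 378 and 252 CPM in LT-HSCs and was at 2308, 1815, 2202 and 2194 CPM in control and 1798, 4006 and 1975 CPM in fusion GMPs. The difference was -5.05 ± 1.09 (SE) (adjusted p = 0.0142). Cst7, the protease inhibitor cystatin F, had a difference of -5.27 ± 1.02 (SE) (adjusted p = 0.00893), and both genes had 0 counts in control LT-HSC library 3, which had the fewest genes detected. Cebpe, a transcription factor of late granulocyte development, had 0 counts in all control LT-HSCs and only 1.79, 1.23 and 2.63 CPM in fusion LT-HSCs, against 118, 95.7, 93.5 and 107 and 122, 266 and 99.8 CPM in control and fusion GMPs, a difference of at most -4.68 (adjusted p = 0.00285). AML1-ETO LT-HSCs thus stayed far below GMPs for Ctsg and Cebpe. Elane, neutrophil elastase, went the other way, with 44.8, 12.8, 0 and 36.9 CPM in control LT-HSCs and 0 counts in all AML1-ETO LT-HSCs, against 5422, 4448, 5188 and 5468 and 3630.1, 2758 and 3105 CPM in GMPs. Its difference was at least 7.85 (adjusted p = 0.026), a call lost without any 1 of 8 libraries, namely the AML1-ETO LT-HSC and control GMP libraries and AML1-ETO GMP library 1. Lyz2, lysozyme of myeloid cells, was the other gene of the list with a higher difference, since it rose in GMPs from 148, 139, 146 and 119.6 to 622, 528 and 418 CPM and was not called in LT-HSCs, where it went from 106, 85.4, 57.3 and 73.4 to 60.0, 40.6 and 76.7 CPM. Its difference was 2.36 ± 0.33 (SE) (adjusted p = 0.00156).

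The count of lower genes in the GMP list was 9 to 13 with 1 library left out, and that of higher genes 1 to 7, with 7 without control LT-HSC library 3 and 1 without 7 of the other libraries. Without AML1-ETO GMP libraries 1 and 3 the counts were 3 lower and 1 higher. With those libraries out Cd34 stayed called at -3.31, while Fcgr3 (-5.94, adjusted p = 0.0896), Ctsg (-4.43, adjusted p = 0.23) and Cst7 (-4.87, adjusted p = 0.177) kept their direction only. In limma voom with weights per group Ctsg (adjusted p = 0.0641) and Cebpe (adjusted p = 0.209) were not called.

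Of 16 measured surface markers used to sort these compartments 5 were lower and 3 higher, with Cd34 and Fcgr3 among the lower. The counts were 3 and 1 without AML1-ETO LT-HSC library 2, and 3 were lower without control GMP library 2 or 3. Kit, the stem cell factor receptor, was at 712, 454, 516 and 576 CPM in control and 819, 1019.9 and 913 CPM in fusion LT-HSCs, and stood at 333, 348, 315 and 364 CPM in control and 276, 209 and 227 CPM in fusion GMPs. It rose in LT-HSCs, and the difference was -1.22 ± 0.23 (SE) (adjusted p = 0.00727), with all AML1-ETO GMP libraries below all control GMPs although that effect was not called (adjusted p = 0.11). Cd48, a SLAM family receptor absent from most LT-HSCs, was at 7.06, 12.5, 0 and 0 CPM in control and 181, 256 and 204 CPM in fusion LT-HSCs, and stood at 81.9, 80.3, 92.1 and 80.8 and 71.0, 92.4 and 67.2 CPM in control and fusion GMPs. The difference was -5.57 ± 1.34 (SE) (adjusted p = 0.0243), lost in 5 of the 14 fits without 1 library, each without 1 of AML1-ETO LT-HSC library 2, AML1-ETO GMP libraries 1 and 3 or control GMP libraries 2 and 3 (highest adjusted p = 0.0698) and without both of those GMP libraries (adjusted p = 0.27). Because the sort markers are not stated, it is unknown whether such a change moved cells into or out of a sort gate.

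Of 26 measured mast cell and basophil genes, 16 rose in LT-HSCs and 6 in GMPs, and none fell in either. With each cell type fitted alone 16 and 13 rose, and 1 fell in GMPs. For the difference 7 of the 26 were lower and none higher (at an unadjusted p under 0.05, 1 was higher and 1 fell in GMPs; DESeq2 called 1 higher). The median fold change was 5.44 in LT-HSCs and 2.76 in GMPs, and the median difference was -2.23, or -1.88 with genes that had a group at 0 counts placed at their bound. Cpa3 (chr3:20215620-20242181, mm10), a carboxypeptidase of mast cell granules, was at 5.25, 17.9, 34.7 and 18.5 CPM in control and 6929, 9413 and 7926 CPM in fusion LT-HSCs, and stood at 101, 124, 99.4 and 86.5 CPM in control and 453, 1246 and 765 CPM in fusion GMPs. Control GMPs exceeded control LT-HSCs, and AML1-ETO LT-HSCs exceeded every AML1-ETO GMP library. It rose by 8.73 ± 0.57 in LT-HSCs and by 2.998 ± 0.45 in GMPs, a difference of -5.73 ± 0.67 (SE) (adjusted p = 0.000616), which was -5.13 without AML1-ETO GMP libraries 1 and 3.

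Mcpt8, a protease of basophils, rose from 0.759, 0, 0 and 0 to 51.0, 82.5 and 85.7 CPM in LT-HSCs and from 78.7, 76.5, 67.2 and 43.5 to 404, 591 and 495 CPM in GMPs. Here GMPs stayed above LT-HSCs in both genotypes, and the difference was -5.51 ± 0.82 (SE) (adjusted p = 0.00215; limma voom with weights per group 0.228, and 0.0582 without AML1-ETO GMP libraries 1 and 3). The other 5 called members were Kit, Hdc, which makes histamine, Ms4a2 and Fcer1a, chains of the high-affinity IgE receptor, and Mitf, a transcription factor of mast cells. Without AML1-ETO LT-HSC library 2 the call for Mitf was lost. Fcer1a had 0 counts in all control LT-HSCs and 52.4, 23.4 and 47.4 CPM in fusion LT-HSCs, against 15.9, 10.5, 12.3 and 9.37 and 53.7, 5.30 and 119 CPM in control and fusion GMPs. The summed level of the list was 1099 to 1714 CPM in control and 11684 to 14629 CPM in fusion LT-HSCs and 1073 to 1349 CPM in control and 3229 to 4810 CPM in fusion GMPs. Cpa3 made up most of the sum in each fusion LT-HSC library, and Kit was a large part of it in control LT-HSCs. The count of lower members was 6 to 9 with 1 library left out and 3 without AML1-ETO GMP libraries 1 and 3, where the median was -4.80, and limma voom with weights per group called 3.

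The Cpa3 promoter is printed because RUNX1, whose DNA-binding domain the fusion carries, recognises a short motif and Cpa3 stands for the mast cell list here. The sequence is the RefSeq window of GRCm38.p6 from 250 bases before to 50 after the start, at chr3:20242132-20242431 on the minus strand. Capitals mark TGNGGT on either strand, a pattern wider than the RUNX1 core TGYGGT, where Y is C or T. Of the 4 matches, 3 are on the strand printed and read TGAGGT, outside that core. The other, printed as ACCACA, reads TGTGGT on the opposite strand.

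Cpa3: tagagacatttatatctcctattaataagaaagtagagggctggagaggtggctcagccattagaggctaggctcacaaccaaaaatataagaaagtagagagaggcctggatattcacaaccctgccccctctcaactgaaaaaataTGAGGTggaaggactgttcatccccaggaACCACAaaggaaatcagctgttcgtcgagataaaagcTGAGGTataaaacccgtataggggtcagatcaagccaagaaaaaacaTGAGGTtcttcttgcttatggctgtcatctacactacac

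This 6-letter pattern is frequent. It occurred in 45.6% of 27025 promoters of that length, in 44.0% of 425 matched promoters of genes with a higher difference, in 42.8% of 313 with a lower difference and in 17 of 23 matched promoters of the mast cell list. A match is only a description of the letters, and the narrower TGYGGT was not counted.

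Lat2, Cep85 and Slc7a8 showed the same order of effects as Cpa3 at closer range. Lat2, an adaptor of immune receptors and a gene of the t(8;21) leukaemia list, was at 12.0, 20.3, 24.7 and 14.3 CPM in control and 266, 228 and 217 CPM in fusion LT-HSCs, and stood at 28.3, 37.9, 32.1 and 27.9 and 33.5, 32.9 and 51.6 CPM in control and fusion GMPs. The difference was -3.42 ± 0.35 (SE) (adjusted p = 0.000335), and the 2 GMP groups overlapped. Cep85, a centrosomal protein, rose in both, from 114, 164, 134 and 90.2 to 1333, 1748 and 1659 CPM in LT-HSCs and from 299, 275, 272 and 234 to 487, 644 and 386 CPM in GMPs. Its difference was -2.75 ± 0.30 (SE) (adjusted p = 0.000427). Slc7a8, a transporter of large neutral amino acids, was at 28.9, 13.03, 33.5 and 17.2 CPM in control and 574, 797 and 584 CPM in fusion LT-HSCs, and stood at 34.6, 34.5, 29.4 and 36.6 CPM in control and 64.3, 128 and 111 CPM in fusion GMPs, a difference of -3.24 ± 0.43 (SE) (adjusted p = 0.00109). Genotypes did not overlap in either cell type for Cep85 and Slc7a8, and all 3 genes stayed called without any 1 library and without AML1-ETO GMP libraries 1 and 3.

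Signalling and inflammatory genes were among those with a lower difference. Of 34 measured cytokine receptors 6 were lower (Kit, Csf3r, Csf1r, Ifnar2, Il3ra and Il10rb) and 3 higher (Epor, Il18r1 and Il7r), and 15 rose in LT-HSCs against 5 in GMPs. Without control LT-HSC library 1 the lower count was 10, and without library 3 the higher count was 5. Osm, the cytokine oncostatin M, rose from 9.10, 17.5, 21.96 and 15.4 to 468, 536 and 329 CPM in LT-HSCs and was at 78.9, 117, 70.5 and 70.9 CPM in control and 118, 320.3 and 177 CPM in fusion GMPs. The difference was -3.51 ± 0.49 (SE) (adjusted p = 0.00147) and AML1-ETO GMP libraries lay above controls, though that effect was not called (adjusted p = 0.0539). Clec4e, a C-type lectin receptor of myeloid cells, had a difference of -5.18 ± 0.96 (SE) (adjusted p = 0.00687), and Tmprss3, a membrane serine protease, one of -7.20 ± 1.30 (SE) (adjusted p = 0.00598). Clec4e was at 0 counts in control LT-HSC library 3 and Tmprss3 in libraries 3 and 4, and neither was called without AML1-ETO GMP libraries 1 and 3 (adjusted p = 0.142 and 0.131). Nlrp3, the sensor of an inflammasome, had 0 counts in all control LT-HSCs, 182, 13.1 and 17.0 CPM in fusion LT-HSCs, 29.7, 36.4, 19.6 and 21.5 CPM in control GMPs and 199, 27.0 and 30.8 CPM in fusion GMPs. Library 1 was the highest of both AML1-ETO groups, and the difference was at most -8.98 (adjusted p = 0.0129; 0.0738 without AML1-ETO GMP libraries 1 and 3, and 0.414 in limma voom with weights per group, where Clec4e had 0.0607). Over the NF-kB and cytokine list 3 were lower and 1 higher of 33.

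Cdk6, a kinase that drives entry into the cell cycle, differed in the opposite sense to the cycle genes described next. It was at 314, 194, 734 and 417 CPM in control and 1678, 2138 and 1806 CPM in fusion LT-HSCs, and stood at 709, 792, 593 and 714 and 422, 850.5 and 661 CPM in control and fusion GMPs. The difference was -2.30 ± 0.49 (SE) (adjusted p = 0.0135), and it was -1.90 and not called without AML1-ETO GMP libraries 1 and 3 (adjusted p = 0.206).

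Genes of DNA replication and mitosis fell in LT-HSCs. Of 62 measured genes 38 were higher for the difference and none lower, with a median of 2.01, and 60 had a positive difference. Within LT-HSCs 55 of the 62 fell, with a median of -2.17, and within GMPs none was called, with a median of -0.20. With each cell type fitted alone 40 fell in LT-HSCs, and 11 fell and 2 rose in GMPs. At an unadjusted p under 0.05 none was lower for the difference, and 1 rose and 7 fell in GMPs. The summed level of the list was 4237 to 8732 CPM in control and 1940 to 2445 CPM in fusion LT-HSCs, and 10606 to 11337 CPM in control and 8823 to 10202 CPM in fusion GMPs. The genotypes did not overlap in either cell type, and GMPs lay above LT-HSCs throughout. Genes of other lineages moved with the list in LT-HSCs: the summed level was 14093 to 79833 CPM in control and 1073 to 1822 CPM in fusion libraries for the B lymphoid list, and 1630 to 4196 and 725 to 979 CPM for the erythroid list. Control LT-HSC library 1 was the lowest control for both the cycle and the erythroid list. Without control LT-HSC libraries 2 and 3 the cycle list had 35 higher genes and a median of 1.85, and beyond that the part of these lineages in the fall was not tested.

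Mcm5 (chr8:75109569-75128439, mm10), a subunit of the replicative helicase, was at 171, 261, 464 and 347 CPM in control and 47.8, 50.7 and 72.4 CPM in fusion LT-HSCs, and stood at 597, 577, 624 and 624 CPM in control and 510.0, 448 and 427 CPM in fusion GMPs. All fusion GMP libraries thus lay below all control GMPs too. Mcm5 fell by 2.45 ± 0.28 in LT-HSCs, and the difference was 2.06 ± 0.37 (SE) (adjusted p = 0.00567). Pole, the catalytic subunit of the leading-strand polymerase, fell from 62.7, 66.6, 102 and 85.1 to 12.8, 13.5 and 18.4 CPM in LT-HSCs and was at 129, 132, 108 and 129 and 92.5, 131 and 91.0 CPM in control and fusion GMPs, a difference of 2.16 ± 0.30 (SE) (adjusted p = 0.00139). Cenpa, the centromeric histone, was at 142, 161, 176 and 175 CPM in control and 72.3, 49.6 and 45.4 CPM in fusion LT-HSCs, and its order turned in GMPs, where it was at 106, 122, 103 and 113 CPM in control and 164, 139 and 135 CPM with the fusion. Its difference was 1.94 ± 0.24 (SE) (adjusted p = 0.000789), with no call in GMPs in the fit of all libraries. Uhrf1, which keeps DNA methylation through replication, had a difference of 2.21 ± 0.49 (SE) (adjusted p = 0.0161; 0.138 without AML1-ETO GMP libraries 1 and 3). Top2a, a topoisomerase that untangles chromosomes, and Cdk1, the kinase of mitotic entry, had differences of 1.94 ± 0.39 (SE) and 2.86 ± 0.60 (SE).

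The count of higher members was 23 to 48 with 1 library left out, the fewest without AML1-ETO LT-HSC library 2, and 23 of the 38 were called in every one of those 14 fits. Without AML1-ETO GMP libraries 1 and 3 the median stayed at 1.99 while 6 members were called, Cenpa (1.87) and Pole (2.48) among them. Limma voom with weights per group called 36 and DESeq2 47, with none lower in either.

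The promoters of Mcm5 and Cdt1, a replication licensing factor with a difference of 1.66 ± 0.35 (SE), are printed as RefSeq windows of GRCm38.p6 because E2F factors drive genes of this kind and both windows hold TTTNNCGC, a core that E2F factors can bind and that was chosen after the data were seen. Capitals mark it on either strand. Mcm5 lies at chr8:75109259-75109558 and Cdt1 at chr8:122567765-122568064, both on the plus strand, with 2 overlapping matches in Mcm5 and 1 in Cdt1.

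Mcm5: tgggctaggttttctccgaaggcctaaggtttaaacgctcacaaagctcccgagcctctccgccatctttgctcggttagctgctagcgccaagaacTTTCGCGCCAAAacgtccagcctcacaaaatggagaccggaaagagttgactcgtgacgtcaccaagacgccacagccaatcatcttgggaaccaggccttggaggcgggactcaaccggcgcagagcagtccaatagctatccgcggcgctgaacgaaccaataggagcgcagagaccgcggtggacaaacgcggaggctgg
Cdt1: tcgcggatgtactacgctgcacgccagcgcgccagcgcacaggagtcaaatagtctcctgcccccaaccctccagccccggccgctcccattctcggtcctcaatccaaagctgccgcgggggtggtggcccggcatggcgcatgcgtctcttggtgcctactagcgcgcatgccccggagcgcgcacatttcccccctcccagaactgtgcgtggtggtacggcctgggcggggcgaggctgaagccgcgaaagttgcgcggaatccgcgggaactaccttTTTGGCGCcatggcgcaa

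The pattern occurred in 5.30% of all 27025 promoters, in 8.49% of the 10807 matched to genes tested, in 12 of 50 matched promoters of the cell cycle list, in 10.8% of the 425 of genes with a higher difference and in 6.07% of the 313 with a lower one. No match in a window says only that these letters are not there.

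Lipid genes with a called difference included genes that fell in LT-HSCs and genes that rose there. In the cholesterol list 4 of 30 measured genes were higher and none lower, with a median of 0.88, and 13 of the 30 fell in LT-HSCs, or 6 with LT-HSCs fitted alone, against none in GMPs in either fit (at an unadjusted p under 0.05 none was lower and 1 fell in GMPs; DESeq2 called 7 higher and none lower). Sqle (chr15:59315077-59331192, mm10), squalene epoxidase, was at 38.9, 33.0, 30.2 and 44.1 CPM in control and 2.99, 2.53 and 2.75 CPM in fusion LT-HSCs, and stood at 39.6, 32.5, 49.4 and 47.3 and 32.4, 25.6 and 17.3 CPM in control and fusion GMPs. All fusion GMP libraries thus lay below all control GMPs too. Sqle fell by 3.72 ± 0.31 in LT-HSCs, and the difference was 2.98 ± 0.39 (SE) (adjusted p = 0.00102). Cyp51, the lanosterol demethylase, fell from 30.2, 19.6, 47.6 and 53.4 to 1.91, 2.46 and 2.57 CPM in LT-HSCs and was at 33.7, 26.1, 48.8 and 39.2 and 30.6, 26.3 and 24.8 CPM in GMPs, a difference of 3.59 ± 0.49 (SE) (adjusted p = 0.00139). Another called member was Sc5d, a sterol desaturase, lost in 11 of the 14 fits without 1 library. Limma voom with weights per group called 2 members.

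Fatty acid synthesis and desaturation had 4 higher of 25 genes and none lower, with a median of 0.31. Fads2 (chr19:10062765-10101746, mm10), which desaturates polyunsaturated fatty acids, was at 70.2, 62.0, 118 and 94.7 CPM in control and 2.69, 8.06 and 2.20 CPM in fusion LT-HSCs, and stood at 16.3, 20.5, 23.3 and 17.9 and 22.5, 15.4 and 21.7 CPM in control and fusion GMPs. The GMP groups overlapped, and the difference was 4.36 ± 0.57 (SE) (adjusted p = 0.00102), of which 3.99 was left and still called without AML1-ETO GMP libraries 1 and 3. Acss2, which makes acetyl-CoA from acetate, fell from 40.1, 45.6, 79.3 and 59.6 to 21.8, 13.8 and 29.8 CPM in LT-HSCs and stood at 8.67, 8.88, 7.27 and 9.31 CPM in control and 19.1, 10.9 and 35.7 CPM in fusion GMPs, a difference of 2.72 ± 0.55 (SE) (adjusted p = 0.0108; 0.163 without AML1-ETO GMP libraries 1 and 3). The other 2 were Srebf1, the sterol regulatory factor, and Scd1, the stearoyl-CoA desaturase, lost in 9 and 6 of the 14 fits without 1 library. The count was 2 without AML1-ETO LT-HSC library 2, AML1-ETO GMP library 1 or control GMP library 1, 2 or 3. At an unadjusted p under 0.05 1 member was lower, and DESeq2 called 5 higher and none lower.

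Fatty acid oxidation gave 1 lower gene of 32 and none higher, with a median of -0.09. That gene, Cpt1b, which carries long-chain fatty acids towards mitochondria, stood at 0.538, 0.307 and 1.16 CPM in fusion LT-HSCs and 1.12, 0.592, 0.909 and 0.466 CPM in control GMPs, with 0 counts in the other 2 groups. Its call was lost without control GMP library 1 or 3. At an unadjusted p under 0.05 2 genes of the list were higher, and DESeq2 and limma voom called none higher. Of 22 triglyceride and lipid droplet genes 2 were higher. Plin2, a coat protein of lipid droplets, was at 43.6, 56.5, 25.6 and 38.1 CPM in control and 26.7, 25.3 and 31.9 CPM in fusion LT-HSCs, and stood at 78.4, 82.1, 87.4 and 67.4 CPM in control and 119, 188 and 135 CPM in fusion GMPs, where the genotypes did not overlap. Neither effect was called alone, and the difference was 1.45 ± 0.34 (SE) (adjusted p = 0.0206), lost in 3 of the 14 fits without 1 library, each without 1 of AML1-ETO LT-HSC libraries 1 and 2 or control GMP library 4 (highest adjusted p = 0.0741). Lpin2, a phosphatidate phosphatase, had a difference of 1.501 ± 0.35 (SE) (adjusted p = 0.0201), lost in the fit without AML1-ETO LT-HSC library 3 (adjusted p = 0.0572), and neither Plin2 nor Lpin2 was called without AML1-ETO GMP libraries 1 and 3 (adjusted p = 0.0512 and 0.117).

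Eicosanoid genes split, with 4 of 30 lower and 1 higher. The lower count was 1 or 2 without any 1 library other than control LT-HSC libraries 1, 2 and 3 and AML1-ETO GMP libraries 1 and 2. Alox5ap, which presents arachidonic acid to 5-lipoxygenase, rose from 35.0, 57.6, 23.1 and 43.0 to 158, 157 and 151 CPM in LT-HSCs and was at 93.7, 88.6, 102 and 85.0 and 97.7, 98.9 and 119.7 CPM in control and fusion GMPs, a difference of -1.78 ± 0.32 (SE) (adjusted p = 0.0063; 0.0801 without AML1-ETO GMP libraries 1 and 3). Tbxas1, thromboxane synthase, fell from 202, 133, 99.0 and 105 to 13.98, 7.99 and 25.3 CPM in LT-HSCs and was at 23.3, 27.4, 20.4 and 21.7 and 67.7, 19.6 and 123 CPM in control and fusion GMPs, a difference of 4.69 ± 0.71 (SE) (adjusted p = 0.00241). Hcar2, a receptor for niacin and beta-hydroxybutyrate, had 0 counts in control LT-HSCs and 196, 158 and 52.8 CPM in fusion LT-HSCs, and rose from 15.0, 15.7, 4.68 and 4.83 to 83.3, 78.3 and 24.1 CPM in GMPs. Its difference was at most -8.88 (adjusted p = 0.00209; limma voom with weights per group 0.276). Cyp11a1, the enzyme that cleaves the cholesterol side chain, likewise had 0 counts in control LT-HSCs, 14.1, 24.0 and 14.6 CPM in fusion LT-HSCs, 12.4, 10.4, 12.3 and 9.43 CPM in control GMPs and 49.3, 55.1 and 24.5 CPM in fusion GMPs, a difference of at most -6.52 (adjusted p = 0.000541).

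Single genes of amino acid, haem and lysosomal metabolism differed too. Asns, asparagine synthetase, was at 21.01, 68.0, 53.3 and 57.0 CPM in control and 0, 0.461 and 0.856 CPM in fusion LT-HSCs, and stood at 18.5, 14.3, 15.4 and 22.1 and 11.1, 12.2 and 11.8 CPM in control and fusion GMPs. The difference was 6.22 ± 0.91 (SE) (adjusted p = 0.00213), and all AML1-ETO LT-HSC libraries lay below every other library. All fusion GMP libraries also lay below all control GMPs. The amino acid list had 5 higher and 2 lower of 26, but 2 or 3 higher without 8 of the libraries, namely the AML1-ETO LT-HSC and control GMP libraries and AML1-ETO GMP library 2. Slc16a1, a lactate and pyruvate transporter, had a difference of 2.04 ± 0.40 (SE) (adjusted p = 0.00876; 0.0582 without AML1-ETO GMP libraries 1 and 3). In the haem and iron list 8 of 21 were higher and 1 lower, with a median of 1.44, or 0.78 without AML1-ETO GMP libraries 1 and 3. Control LT-HSC library 1 had the lowest summed level among control LT-HSCs for this list (1854 CPM) and for the erythroid list (1630 CPM). The part of red cell transcripts in the haem list was not tested. Cpox, an enzyme of haem synthesis, fell from 98.0, 153, 157 and 154 to 21.7, 19.4 and 36.1 CPM in LT-HSCs and was at 55.9, 52.9, 65.4 and 61.4 and 82.1, 59.9 and 93.0 CPM in control and fusion GMPs, a difference of 2.86 ± 0.34 (SE) (adjusted p = 0.000666). Steap3, a ferrireductase of the transferrin cycle, had a difference of 3.51 ± 0.48 (SE) (adjusted p = 0.00133). Ctsl, the lysosomal protease cathepsin L, had one of 2.23 ± 0.40 (SE) (adjusted p = 0.00592), whereas Cd63, a tetraspanin of lysosomes and granules, had one of -2.37 ± 0.42 (SE) (adjusted p = 0.00538; 0.121 without AML1-ETO GMP libraries 1 and 3).

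Ribosomal protein genes gave no call in either direction among 74 measured, with a median of 0.03 by edgeR's quasi-likelihood test. At an unadjusted p under 0.05, 1 was higher and 3 lower, DESeq2 called 1 of each, limma voom called none, and without control LT-HSC library 2 edgeR called 3 lower. Oxidative phosphorylation gave 2 higher of 64, or 10 without control LT-HSC library 1 and none without AML1-ETO LT-HSC library 1 or 2, AML1-ETO GMP library 1 or control GMP library 2 or 4. Heat shock chaperones gave no call among 24, with 2 higher at an unadjusted p under 0.05, 1 higher by DESeq2 and none by limma voom. Of 25 genes of the t(8;21) leukaemia list 7 were lower and 3 higher, with 6 to 9 lower with 1 library left out and 3 lower and none higher without AML1-ETO GMP libraries 1 and 3. The list of immediate early genes had 3 higher and 2 lower of 42, although 20 of its genes rose in LT-HSCs and 14 in GMPs (15 and 27 with each cell type fitted alone). With 1 library left out the higher count was 1 to 10, the most without AML1-ETO LT-HSC library 1, and the lower count 0 to 3. DESeq2 called 7 higher and 2 lower.

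**Figure D4:**
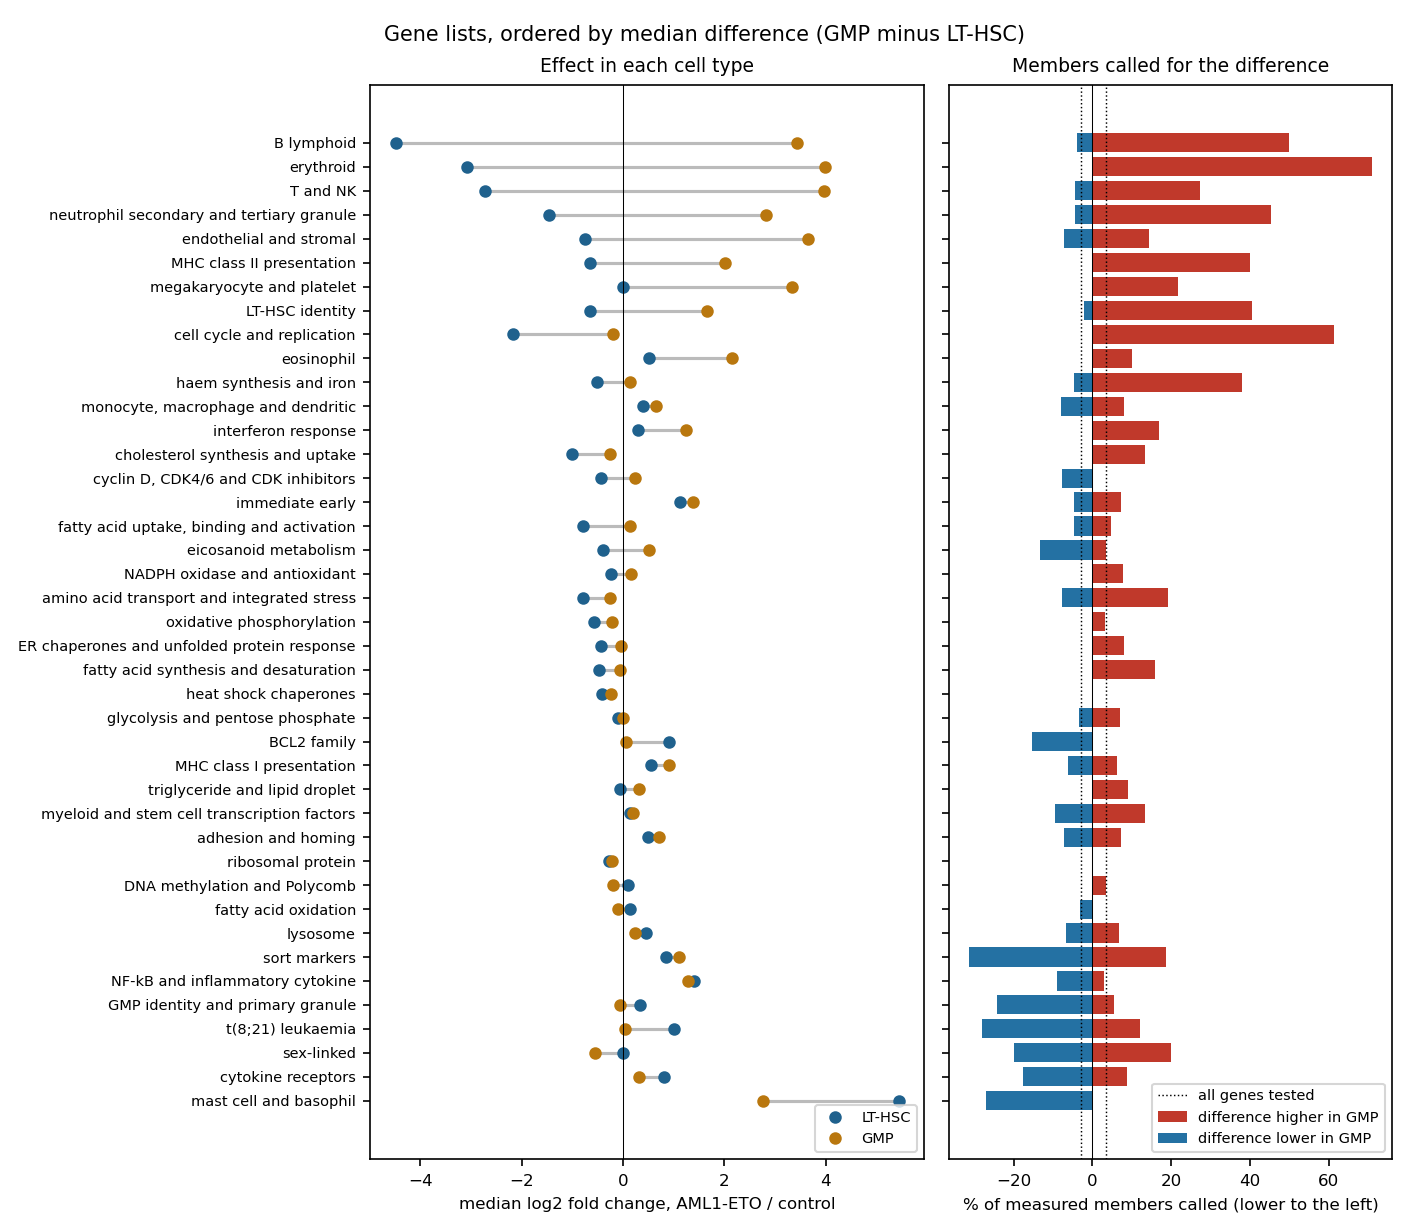
For each of 41 gene lists, ordered by median difference, the left panel gives the median log2 fold change of AML1-ETO over control in LT-HSCs (blue) and GMPs (brown) and the right panel the percentage of measured members called higher (red) or lower (blue) for the difference, with dotted lines at the shares of all genes tested. The cell cycle list differs mainly through LT-HSCs, the mast cell list has positive medians in both (5.44 and 2.76), and the erythroid, B lymphoid and T and NK lists have a negative median in LT-HSCs and a positive one in GMPs.

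Part of the LT-HSC list rose in AML1-ETO GMPs, 16 of the 47 measured genes. For the difference 19 were higher and 1, Kit, lower, with a median of 2.88. None of the 47 fell in GMPs (3 fell at an unadjusted p under 0.05), and in LT-HSCs 4 rose and 11 fell. The LT-HSC list also holds genes not specific to stem cells, such as the immediate early genes Egr1, Nr4a1 and Junb. In the immediate early list 14 of 42 genes rose in GMPs. The part of such genes in the counts and summed level of the LT-HSC list was not tested. Fgd5 (chr6:91978878-92076004, mm10), a guanine nucleotide exchange factor that marks stem cells, was at 0.0535, 0.215, 0.195 and 0 CPM in control and 2.70, 3.86 and 4.17 CPM in fusion GMPs, against 86.8, 40.99, 34.9 and 22.7 and 52.1, 64.0 and 47.1 CPM in control and fusion LT-HSCs. All 3 AML1-ETO GMP libraries lay above all controls, at a level well below that of LT-HSCs. It rose by 4.87 ± 0.63 in GMPs, and the difference was 4.64 ± 0.80 (SE) (adjusted p = 0.00508), or 4.74 and still called without AML1-ETO GMP libraries 1 and 3. Esam, an adhesion molecule of stem and endothelial cells, rose from 0.214, 0.162, 0.390 and 0.291 to 23.7, 10.9 and 144 CPM in GMPs, with library 3 far above the others, and its difference was 7.04 ± 1.23 (SE) (adjusted p = 0.00538; 4.58 without libraries 1 and 3). Tek, the angiopoietin receptor, rose from 1.61, 1.29, 1.04 and 1.22 to 17.6, 10.3 and 126 CPM in GMPs, again led by library 3. Its difference of 5.35 ± 1.05 (SE) (adjusted p = 0.00917) was 3.04 and not called without libraries 1 and 3 (adjusted p = 0.0909).

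The LT-HSC list thus depended on the libraries. Its summed level in AML1-ETO GMPs was 3014, 2632 and 5762 CPM, against 1322 to 1808 CPM in control GMPs and 6576 to 17807 CPM in all LT-HSCs. The count of higher genes in the LT-HSC identity list was 5 without AML1-ETO LT-HSC library 2, 8 without library 1 and 12 without library 3 of that group, 11 without AML1-ETO GMP library 3, and 9 to 11 without any 1 control GMP library. Without AML1-ETO GMP libraries 1 and 3 it was 3, with a median of 1.34, limma voom with weights per group called 10, and 4 of the 19 were called in every fit without 1 library. Some members differed through LT-HSCs instead. Mycn, a transcription factor of the Myc family, fell from 87.4, 86.7, 81.2 and 102 to 0, 0 and 1.65 CPM in LT-HSCs, a difference of 8.07 ± 1.91 (SE) (adjusted p = 0.0225) that was lost without AML1-ETO LT-HSC library 1 or 2, AML1-ETO GMP library 3 or control GMP library 1 or 2.

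Interferon-responsive genes were higher for the difference in 9 of 53 measured cases and lower in none, with a median of 0.96. In GMPs 17 rose and in LT-HSCs 7 rose and 4 fell. Iigp1, a GTPase of cell-autonomous immunity, was at 0.803, 0.377, 0.195 and 1.11 CPM in control and 26.2, 28.2 and 42.5 CPM in fusion GMPs, and at 125, 124, 24.6 and 47.0 and 48.9, 45.2 and 57.5 CPM in control and fusion LT-HSCs. AML1-ETO GMPs lay above control LT-HSC library 3, which had the fewest genes detected, but below every other LT-HSC library. The difference of Iigp1 was 6.34 ± 0.81 (SE) (adjusted p = 0.00102; 6.13 without AML1-ETO GMP libraries 1 and 3). Gbp2, a guanylate-binding protein, rose in GMPs from 6.48, 6.68, 4.94 and 10.998 to 93.3, 95.7 and 51.3 CPM. Its difference was 2.81 ± 0.66 (SE) (adjusted p = 0.0212), lost when any 1 LT-HSC library with the fusion was left out. The count of higher members was 15 without control LT-HSC library 3 and 5 without control LT-HSC library 2. It was 2 to 4 without any 1 AML1-ETO LT-HSC or control GMP library, 5 without AML1-ETO GMP library 1 or 3 and 2 without both of these, where the median was 0.56. At an unadjusted p under 0.05, 21 were higher and 1 lower, and DESeq2 called 17 higher and limma voom 4, with none lower in either. Every sample of all groups is listed with Poly(I:C), an inducer of interferon, and its part in the levels of these genes was not tested.

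Zfp36l1 and Serpina3g rose in both cell types and more so in GMPs. Zfp36l1, an RNA-binding protein that promotes mRNA decay, was at 92.0, 150.4, 141 and 128 CPM in control and 248, 311 and 251 CPM in fusion LT-HSCs, and stood at 8.19, 13.4, 5.65 and 6.87 CPM in control and 48.7, 140.2 and 81.1 CPM in fusion GMPs, a difference of 2.32 ± 0.47 (SE) (adjusted p = 0.0108). The genotypes did not overlap in either cell type. Serpina3g, a serine protease inhibitor, went from 409, 383, 135 and 156 to 620.2, 880.2 and 1228 CPM in LT-HSCs and from 35.8, 26.7, 31.8 and 34.9 to 304, 657 and 634 CPM in GMPs. Its difference was 2.29 ± 0.55 (SE) (adjusted p = 0.024), lost in 5 of the 14 fits without 1 library, each without 1 of AML1-ETO LT-HSC libraries 1 and 2, AML1-ETO GMP library 3 or control GMP libraries 2 and 3 (highest adjusted p = 0.0755) and without AML1-ETO GMP libraries 1 and 3 (adjusted p = 0.0811).

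Myc, a factor of growth and proliferation, was among the 64 genes called as lower in AML1-ETO GMPs in the fit of all libraries. It was at 404, 434, 462 and 492 CPM in control and 148, 266 and 203 CPM in fusion GMPs, a fall of 1.12 ± 0.20, and at 192, 213, 222 and 260.2 and 171, 201 and 254 CPM in control and fusion LT-HSCs, which overlapped. The difference was -1.04 ± 0.27 (SE) (adjusted p = 0.0373), lost in 8 of the 14 fits without 1 library, each without 1 of AML1-ETO LT-HSC libraries 2 and 3, AML1-ETO GMP libraries 1 and 3 or control GMP libraries 1, 2, 3 and 4 (highest adjusted p = 0.106). It was lost too without AML1-ETO GMP libraries 1 and 3 (adjusted p = 0.323), without control LT-HSC libraries 2 and 3 (adjusted p = 0.0711) and in limma voom with weights per group (adjusted p = 0.0607). Over the list of myeloid and stem cell transcription factors 7 of 52 were higher and 5 lower. With 1 library left out these counts were 0 to 10 and 1 to 9, both lowest without AML1-ETO LT-HSC library 2 and highest without AML1-ETO GMP library 2, and DESeq2 called 10 of each. Tcf7, a factor of T cells and early progenitors, fell from 71.4, 92.5, 550.5 and 87.8 to 2.33, 1.38 and 1.22 CPM in LT-HSCs and was at 3.64, 1.45, 3.83 and 1.28 and 12.3, 10.6 and 15.4 CPM in control and fusion GMPs. Its difference was 9.24 ± 1.06 (SE) (adjusted p = 0.000616), called without any 1 library and, at 8.98, without AML1-ETO GMP libraries 1 and 3.

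The lists of erythroid, platelet, neutrophil granule, B lymphoid, T and NK and MHC class II genes had median differences of 3.45 to 7.88, which were 0.48 to 2.82 without AML1-ETO GMP libraries 1 and 3. In LT-HSCs 11 of 26 B lymphoid and 5 of 22 T and NK genes fell, against 3 of 23 platelet genes (5 rose), 2 of 22 neutrophil granule genes and 1 of 10 MHC class II genes. Of 31 erythroid genes 22 were higher and none lower, with a median of 7.61 (7.33 with bounds), 13 rose in GMPs and 12 fell in LT-HSCs. None was lower at an unadjusted p under 0.05, by DESeq2 (26 higher) or by limma voom (13 higher), and 14 were higher without AML1-ETO LT-HSC library 2. The summed level was 5786, 418 and 2702 CPM in AML1-ETO GMP libraries 1, 2 and 3, against 391 to 435 CPM in control GMPs, 1630 to 4196 CPM in control LT-HSCs and 725 to 979 CPM in fusion LT-HSCs. Library 2 thus lay within the control GMPs. Car1, a carbonic anhydrase of early red cell precursors, was at 1.82, 5.44, 4.16 and 3.84 CPM in control and 3.49, 0.982 and 98.6 CPM in fusion GMPs, and fell from 196, 1067, 572 and 629 to 7.70, 1.38 and 8.87 CPM in LT-HSCs. The difference was 9.84 ± 1.73 (SE) (adjusted p = 0.00538). Aqp1, a water channel of red cells, had one of 6.53 ± 1.08 (SE) (adjusted p = 0.0038), and Tspan33, a tetraspanin of the erythroid lineage, one of 7.33 ± 1.21 (SE) (adjusted p = 0.00379). Without libraries 1 and 3 the erythroid median was 1.46 and 1 of the 31 was called. Aqp1 (4.22, adjusted p = 0.0435) was that gene, and Car1 (4.72) and Tspan33 (3.44) kept their direction with adjusted p = 0.156 and 0.126.

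Neutrophil granule genes were higher in 10 and lower in 1 of 22 measured cases. The higher count was 4 to 6 without AML1-ETO LT-HSC library 2 or 3, AML1-ETO GMP library 1 or 3 or any 1 control GMP library, and limma voom with weights per group called 2. S100a9, a calcium-binding protein of neutrophils, was at 10.3, 6.68, 8.57 and 8.38 CPM in control and 867, 124 and 116 CPM in fusion GMPs, all above the controls, and at 19.1, 14.2, 17.4 and 18.4 and 11.4, 0 and 1.41 CPM in LT-HSCs. Its difference was 7.43 ± 1.36 (SE) (adjusted p = 0.0063; 0.107 without libraries 1 and 3). Cybb, the membrane subunit of the NADPH oxidase, fell from 13.4, 47.7, 13.9 and 29.0 to 1.31, 0.230 and 1.35 CPM in LT-HSCs and was at 83.1, 68.4, 61.2 and 65.9 and 287, 56.0 and 82.9 CPM in GMPs, a difference of 5.74 ± 0.89 (SE) (adjusted p = 0.00267), still called at 4.40 without libraries 1 and 3. Ltf and Ngp, proteins of secondary granules, were at 533, 0 and 77.2 and 735, 0 and 109.8 CPM in the AML1-ETO GMPs, so library 2 held no count of either. Their differences of 9.66 ± 2.59 (SE) (adjusted p = 0.0398) and 9.02 ± 2.40 (SE) (adjusted p = 0.0383) turned to -5.00 and -6.12 without libraries 1 and 3 and were then not called, nor in limma voom with weights per group (adjusted p = 0.189 and 0.257), and the list median fell from 5.46 to 0.48.

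Cd74, the invariant chain of MHC class II, was at 681, 1404, 172 and 524 CPM in control and 176, 25.5 and 105 CPM in fusion LT-HSCs, and stood at 16.4, 14.3, 5.97 and 3.26 CPM in control and 1161, 57.2 and 177 CPM in fusion GMPs, led by library 1. Its difference was 8.30 ± 1.46 (SE) (adjusted p = 0.00551; 5.27, adjusted p = 0.071, without libraries 1 and 3). Cd79a, a chain of the B cell receptor complex, fell from 44.1, 99.2, 49.8 and 19.7 to 0.119, 1.84 and 0.428 CPM in LT-HSCs and rose from 0.0535, 0.162, 0.390 and 0.175 to 21.8, 0.524 and 3.19 CPM in GMPs, a difference of 11.50 ± 1.74 (SE) (adjusted p = 0.00237). The B lymphoid list had 13 higher and 1 lower of 26 (2 and 2 without libraries 1 and 3), and the T and NK list 6 and 1 of 22. Without AML1-ETO LT-HSC library 1 or 2 the B lymphoid list had 7 or 8 higher. The lower one of the B lymphoid list was Cd37, a tetraspanin, which rose from 105, 120.2, 174 and 116 to 386, 368 and 389 CPM in LT-HSCs and was at 199, 178, 171 and 189 and 202, 159.5 and 185 CPM in control and fusion GMPs, a difference of -1.58 ± 0.24 (SE) (adjusted p = 0.00215).

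Platelet genes were higher in 5 and lower in none of 23, none being lower at an unadjusted p under 0.05 or by DESeq2, which called 13 higher. The higher count was 9 and 12 without AML1-ETO GMP library 1 and library 2, and 1 to 3 without control LT-HSC library 4, AML1-ETO GMP library 3 or any 1 AML1-ETO LT-HSC or control GMP library. Pf4, platelet factor 4, was at 17.8, 4.12 and 147 CPM in fusion GMPs, led by library 3, and at 1.12, 7.48, 7.08 and 6.81 CPM in control GMPs, while it fell from 45.6, 31.0, 126 and 134 to 1.08, 2.92 and 12.3 CPM in LT-HSCs. The difference was 7.27 ± 1.58 (SE) (adjusted p = 0.015), lost in the fit without AML1-ETO LT-HSC library 2 (adjusted p = 0.0652) and without libraries 1 and 3 (adjusted p = 0.269). Prg2, the major basic protein of eosinophils, fell from 23.3, 87.0, 4.72 and 17.4 to 1.254, 0.614 and 0 CPM in LT-HSCs, against 1725, 882, 893 and 638 CPM in control and 4401, 5685 and 2059 CPM in fusion GMPs, all above the controls, where its effect was not called (adjusted p = 0.18). Its difference was 7.67 ± 1.27 (SE) (adjusted p = 0.00379), 8.16 without libraries 1 and 3 and still called, though not in limma voom with weights per group (adjusted p = 0.195). Xist, the RNA of the inactive X chromosome, was at 596, 1.11 and 512 CPM in fusion GMPs and 5.20, 0.307 and 3.85 CPM in fusion LT-HSCs, and at 672, 39.3, 7.87 and 155 and 0.107, 0.592, 1.69 and 29.9 CPM in control LT-HSCs and GMPs, so the libraries of 3 groups differed in Xist among themselves. The high Xist of AML1-ETO GMP libraries 1 and 3 goes with the lineage transcripts of these libraries, and its part in the counts of this section was not tested.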

How the data were processed

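Total RNA of sorted LT-HSCs and GMPs was made into libraries with low-input and stranded kits, per the labels' protocols. Named in the submitters' processing notes are the mm10 build, featureCounts 1.5.0-p3 and HISAT2 2.0.5. The authors deposited raw counts per gene symbol, with no normalization (annotation and strand setting: not given in the sources used here). Overlapping antisense genes cannot be separated. Among the deposited lines, 27 had date-like names (0.140% of the counts). They stayed in the library sizes, passed through the same filter as other lines and could not be named. The 105 repeated symbols are uncertain. Samples were grouped by genotype and cell type from their descriptions.

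Genes were filtered with filterByExpr, scaled by TMM and tested in edgeR 4.0.16 (R 4.3.3) with glmQLFit and glmQLFTest over all 14 libraries in 4 groups, with 10 residual degrees of freedom. DESeq2 1.42.0 and limma 3.58.1 (voomWithQualityWeights) were alternatives, beside other scaling, filters, replicate blocks, left-out libraries and a prior count of 0.5, 2 or 5 for list medians. The script was tested on simulated counts that gave each gene the same spread in all 4 groups, so the unequal spread of these libraries was not covered. Depth was 13210952 to 19403864 counts per library, and a group at 0 was set at 3 counts over the group, a floor for counting error only. Coordinates are of GENCODE M21 (mm10) and promoters of RefSeq (GRCm38.p6).

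Named genes are Runx1, Runx1t1 and, among called genes averaging 20 counts or more and carrying a gene name, the 6 largest differences each way with a mean of at least 1 CPM in every group, 6 each way with opposite effects, 3 each way with like effects, the 2 of smallest p in each of 41 lists, and the 3 largest each way among genes at 0 in a group; some of these genes are not reported here. Igkc and Igha entered because the rule left out immunoglobulin segments but not constant genes. Slamf1, Mpo, Elane, Hdc, Ms4a2, Mitf, Fcer1a, Mcm5, Cdt1, Top2a, Cdk1, Sc5d, Srebf1, Scd1, Cpt1b, Mycn, Gbp2 and the cytokine receptors in brackets were named after their values were seen. The genes and lists were chosen with earlier results of these data known.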

Additional observations from a re-analysis of the deposited data

Results flagged for a closer look

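The test of the difference between the cell types picked 552 genes whose response to AML1-ETO was higher in GMPs and 469 whose response was lower, and 91 of them are named here. All values in the next sentences are log2 differences, GMP effect minus LT-HSC effect, by edgeR's quasi-likelihood test.

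Genes with effects called in opposite directions, or in the same direction at unequal size, were Gbp8 at 12.95, Tgm2 at 9.47, Col4a1 at 7.75, Il18r1 at 7.37, Myh10 at 6.46, Ttc39b at 6.22, Cd79a at 11.50, Zfp36l1 at 2.32, Serpina3g at 2.29, Zfp422 at -1.60, Cep85 at -2.75, Cpa3 at -5.73, Mcpt8 at -5.51 and Slc7a8 at -3.24. Genes of the GMP, granule and surface lists were Cd34 at -3.76, Fcgr3 at -6.05, Ctsg at -5.05, Cst7 at -5.27, Cd48 at -5.57, Kit at -1.22, Cd37 at -1.58, Cd63 at -2.37, Pecam1 at -1.37, Lyz2 at 2.36, Ly6c2 at 6.01 and Cybb at 5.74. Signalling and regulatory genes were Osm at -3.51, Clec4e at -5.18, Tmprss3 at -7.20, Lat2 at -3.42, Cdk6 at -2.30, Myc at -1.04, Runx1 at -1.03, Tcf7 at 9.24, Bcl2l11 at -1.96 and Bid at -1.19.

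Genes of growth and metabolism were Cenpa at 1.94, Pole at 2.16, Uhrf1 at 2.21, E2f2 at 3.28, Sqle at 2.98, Cyp51 at 3.59, Fads2 at 4.36, Acss2 at 2.72, Lpin2 at 1.501, Plin2 at 1.45, Tbxas1 at 4.69, Alox5ap at -1.78, Slc16a1 at 2.04, Pgam1 at -1.31, Ndufa10 at 0.82, Sdhd at 1.05, Asns at 6.22, Cpox at 2.86, Steap3 at 3.51, Ctsl at 2.23, Prdx2 at 1.15, Sdf2l1 at 1.75 and Derl3 at 8.196. Stem cell, interferon and antigen presentation genes were Fgd5 at 4.64, Esam at 7.04, Tek at 5.35, Iigp1 at 6.34, Nlrc5 at 1.13, Tap2 at -0.88, Cd74 at 8.30 and H2-Eb1 at 6.60. Genes of other lineages, with Xist and the Y-linked gene Kdm5d, were Car1 at 9.84, Aqp1 at 6.53, Tspan33 at 7.33, Ermap at 8.64, Ltf at 9.66, Ngp at 9.02, S100a9 at 7.43, Prg2 at 7.67, Pf4 at 7.27, Gp9 at 7.58, Xist at 11.62 and Kdm5d at -2.23.

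Where all libraries of a group had 0 counts, the adjusted p and a bound are given. The difference was at least 11.08 for Gbp4 (adjusted p = 0.000335), 14.15 for Mmp9 (0.0277), 17.89 for Igkc (0.00735) and 25.53 for Igha (0.0426). It was at most -6.52 for Cyp11a1 (adjusted p = 0.000541), -10.63 for Capns2 (0.00567), -10.49 for Prf1 (0.00215), -10.06 for Adamtsl1 (0.00694), -7.98 for Clec10a (0.00102), -8.88 for Hcar2 (0.00209), -8.98 for Nlrp3 (0.0129) and -4.68 for Cebpe (0.00285). With 1 library left out the bound was as low as 9.57 for Mmp9 (without AML1-ETO GMP library 1), 14.53 for Igkc (without AML1-ETO GMP library 3) and 22.23 for Igha (without control LT-HSC library 2). Igha has no bound without AML1-ETO GMP library 3, and none of these 3 has one without AML1-ETO GMP libraries 1 and 3. Igha was not called in 8 of the fits without 1 library (highest adjusted p = 0.831) and Mmp9 in 7 (highest adjusted p = 0.0922). The bound for Nlrp3 was -6.67 without AML1-ETO LT-HSC library 1. Igkc and Igha are immunoglobulin constant region genes, and the library that led control LT-HSCs for both had 9.02% of its counts in immunoglobulin genes.

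Of these 91 calls, 66 held without any 1 library. The other 25 are Runx1, Xist, Ltf, Ngp, Serpina3g, Igha, Mmp9, Cd48, Pf4, Lpin2, Plin2, Pgam1, Ndufa10, Sdhd, Nlrc5, Tap2, H2-Eb1, Myc, E2f2, Sdf2l1, Derl3, Prdx2, Bcl2l11, Bid and Kdm5d. Without AML1-ETO GMP libraries 1 and 3 together, 44 of 92 genes, these and Runx1t1, kept their direction and side of the threshold.

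Single libraries stood apart in 12 of 184 control-group profiles of these genes, where chance gives about 1 in 20. In each, the gap to the nearest of the other libraries was too large a share of the group's range by Dixon's test for 4 values. In control LT-HSCs these were library 1 for Mcpt8 (0.759 CPM), Aqp1 (189.7 CPM) and Cpox (98.0 CPM), library 2 for Igkc (22950.0 CPM) and Igha (2436 CPM), and library 3 for Tcf7 (550.5 CPM). In control GMPs they were library 1 for Pf4 (1.12 CPM), library 2 for Bcl2l11 (34.1 CPM), library 3 for Cd48 (92.1 CPM), Pole (108 CPM) and Tap2 (145 CPM), and library 4 for Xist (29.9 CPM).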

How the results depend on the processing

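The counts of the difference were 235 to 735 higher and 236 to 742 lower with 1 library left out, both lowest without AML1-ETO LT-HSC library 2. DESeq2 gave 1090 higher, a minimum of 10 CPM in 3 libraries gave 301 lower, the removal of AML1-ETO GMP libraries 1 and 3 gave 119 higher and 113 lower, and that of control LT-HSC libraries 2 and 3 gave 725 lower. Scaling by library totals gave 636 higher and 378 lower and moved the median of all genes to 0.13. Of the 1021 genes called, 977 were also called by DESeq2, which called 1781 in all, and 636 by limma voom with weights per group, which called 831. The fits with a replicate block by number and by genotype and number called 550 and 482 of the 1021. Within LT-HSCs the counts were 960 to 1924 higher and 723 to 1715 lower with 1 library left out, and 1107 and 684 with each cell type fitted alone. Within GMPs they were 183 to 639 higher and 20 to 199 lower with 1 library left out, 918 and 331 with DESeq2, 765 and 554 with each cell type fitted alone, 668 and 312 without control LT-HSC libraries 2 and 3, and 116 higher without AML1-ETO GMP libraries 1 and 3. Between the cell types, control mice gave 1505 to 2498 higher and 1103 to 2092 lower with 1 library left out and 2676 lower with DESeq2. AML1-ETO mice gave 1294 to 2498 higher and 798 to 2079 lower with 1 library left out, 1211 and 777 without AML1-ETO GMP libraries 1 and 3, and 2322 lower without control LT-HSC libraries 2 and 3. The cause of these shifts was not tested.

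Libraries of the same number went together in AML1-ETO mice but mostly not in controls, and the main test used no replicate block. Deviations of same-numbered libraries from their group means correlated at 0.112, 0.275 and 0.179 in AML1-ETO mice and at -0.003, -0.114, -0.014 and 0.087 in controls, and every AML1-ETO library correlated best with its own number. With a replicate block by number the difference had 337 higher and 231 lower calls, the LT-HSC effect 1085 higher and the GMP effect 192 higher and 16 lower. With a replicate block by genotype and number the difference had 300 higher and 208 lower.

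Signs turned for Runx1t1, at 0.054 with library totals, and within a range of -0.84 to 0.29 over the fits without 1 library, with 0.12 without AML1-ETO LT-HSC library 2, 0.12 without control LT-HSC library 1, 0.29 without control LT-HSC library 2, 0.03 without AML1-ETO GMP library 1 and 0.03 without its library 2. Without AML1-ETO GMP libraries 1 and 3 they turned for Ltf (-5.00), Ngp (-6.12) and Ermap (-2.16). Of 2435 results of named genes under all alternatives, 2155 kept direction and side of the threshold and 271 kept direction only. Of 1189 list medians, 1029 moved by less than the spread between libraries. Depth limits genes near 0 in a group, for which bounds are given, and 10 residual degrees of freedom limit every test.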
